A study of Mus musculus with 6 samples.

Results

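The genes examined here were 50 genes of DNA replication and S phase, out of 32544 genes in the deposited table. They were given as a list of symbols with no measured value in the rule, but earlier results of these data were known when the list was proposed. Of the 50 genes, 46 reached 1 CPM (reads of a gene scaled to the library total as counts per 1e+06) in at least 3 of 6 libraries and were tested. In proximal tubules of mice given aristolochic acid, 9 of the 46 were called higher and 4 were called lower than in mice given the solvent, and 33 were not called. The 9 higher genes were Pcna, Cdt1, Mcm7, Orc6, Rrm2, Slbp, Fen1, Mcm4 and Rfc5, and the 4 lower genes were Pole, Chaf1a, Prim2 and Mcm10. Pcna, the sliding clamp of the DNA polymerases, averaged 72.6 ± 5.83 CPM in AA libraries and 24.9 ± 2.94 CPM in DMSO libraries (SD, n = 3 each). Pole, the catalytic subunit of DNA polymerase epsilon, averaged 2.73 ± 0.881 CPM in AA libraries and 6.48 ± 0.554 CPM in DMSO libraries (SD, n = 3 each).

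DNA replication starts in G1, when the origin recognition complex, Cdc6 and Cdt1 load the ring of Mcm proteins onto origins (licensing). In S phase, kinases and the Cdc45 and GINS factors turn the loaded ring into a moving helicase (firing). Primase and DNA polymerase alpha lay down primers, and the clamp Pcna tethers the replicating polymerases, while dNTP enzymes and histone chaperones supply the fork. Many of these genes are known targets of the E2F transcription factors. Cells of the mature proximal tubule are mostly quiescent and can re-enter the cycle after injury. Several of these proteins, among them Pcna, Rfc subunits, Fen1 and Lig1, also act in DNA repair synthesis outside S phase.

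The AA group received a single injection of 3 mg/kg of aristolochic acid I, a plant nephrotoxin whose metabolites form bulky adducts on DNA, and the DMSO group received dimethyl sulfoxide, the solvent, for which the design text gives the same 3 mg/kg figure. All were C57Bl/6 mice, described as control mice in both groups, and kidneys were taken 24 h after the injection; neither age nor sex is given in the sources used here. From each kidney 5 to 10 hand-dissected tubules, S2 and S3 segments together, were pooled, and polyadenylated RNA was sequenced in 3 libraries per group. Nothing in the labels ties each library to its own animal, so p-values measure only the spread between these libraries.

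Library totals were 13304877, 17815915 and 13926322 reads in AA replicates 1, 2 and 3 and 23896026, 31136251 and 15958557 reads in DMSO replicates 1, 2 and 3, so that 1 read was worth between 0.0321 and 0.0752 CPM. Correlations of log2 values were 0.970 to 0.980 within groups and 0.918 to 0.950 between groups. Over all 14311 tested genes, 3187 were called higher (22.3%) and 1239 lower (8.66%) at an adjusted p under 0.05 in limma, and the median log2 fold change was 0.21. Cdkn1a, the p53-induced inhibitor of cyclin-dependent kinases that also binds Pcna, had 192, 276 and 279 CPM in AA libraries and 3.26, 0.867 and 0.877 CPM in DMSO libraries. Trp53 had 75.2, 70.2 and 90.8 CPM in AA libraries and 29.8, 35.5 and 32.0 CPM in DMSO libraries. The proximal tubule markers of the labelled segment were abundant in every library, with Lrp2 at 2323 CPM or more in AA libraries and 6251 CPM or more in DMSO libraries.

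The members' calls were close to the background of all tested genes in both directions. The share of tested members called higher was 19.6%, beside 22.3% of all tested genes, and the share called lower was 8.70%, beside 8.66%. Every AA library lay above every DMSO library for 14 members (30.4%, beside 33.4% of all tested genes) and below for 7 members (15.2%, beside 13.0%). The median log2 fold change of the 46 members was 0.10 with CPM as deposited, and it was -0.08, -0.16 and -0.18 with TMM factors, equalised library medians and quantile normalization, which also moved the median of all tested genes to 0.02, -0.05 and -0.01. Relative to the median of all genes, 19 of 46 members lay above it with CPM as deposited, with TMM factors and with equalised medians, and 17 with quantile normalization. With CPM as deposited, levels summed over the 50 members were 484 to 586 CPM in AA libraries and 406 to 439 CPM in DMSO libraries. Without Pcna they were 418 to 509 CPM in AA libraries and 383 to 411 CPM in DMSO libraries. The TMM factors were 1.02 to 1.11 in AA libraries and 0.887 to 0.962 in DMSO libraries. Dividing by these factors would lower the AA sums and raise the DMSO sums. The gap between groups in these sums therefore depends on the scaling, and rescaled sums were not computed.

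**Figure D1:**
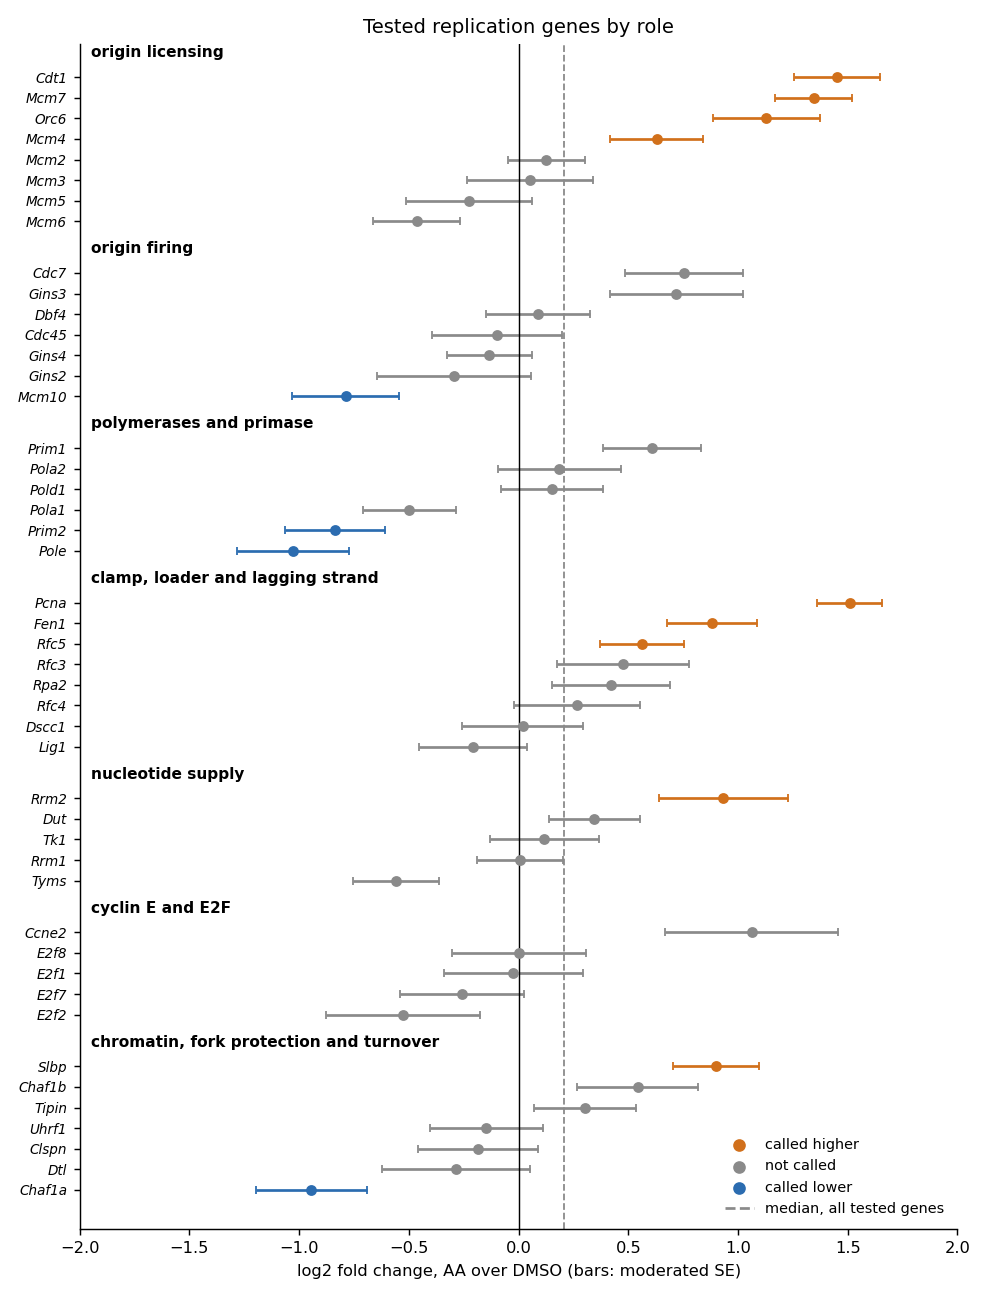
Log2 fold change of AA over DMSO (x axis) for the 46 tested replication genes, grouped by role down the page; points are fitted values, bars are the moderated SE, orange marks genes called higher, blue genes called lower and grey genes not called, and the dashed line is the median of all tested genes at 0.21. Higher calls lie in the licensing group (4 genes), the clamp and lagging strand group (3), nucleotide supply (1) and the chromatin group (1), while the polymerase and primase group holds 2 lower calls and no higher call. Over all tested genes 22.3% were called higher and 8.66% lower, and no role was tested against these shares.

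Of the 10 licensing genes, 8 were tested, 4 were called higher and none lower. Their median log2 fold change was 0.38, beside 0.21 over all tested genes. With TMM factors, equalised library medians and quantile normalization it was 0.18, 0.12 and 0.09, beside 0.02, -0.05 and -0.01. With each scaling 4 of the 8 lay above the median of all tested genes. Over all tested genes 22.3% were called higher and 8.66% lower. Each role holds few genes, and no role was tested against this background. Cdt1, the factor that loads the Mcm ring and is destroyed in S phase, had 16.3, 17.8 and 19.9 CPM in AA libraries and 5.94, 5.81 and 6.02 CPM in DMSO libraries. The 3 DMSO libraries were nearly equal, and every AA library lay far above them, for a log2 fold change of 1.45 (adjusted p = 0.000482 in limma, SE 0.20). The gene lies at chr8:122568015-122573554 on the plus strand (GRCm38, GENCODE M21, as for all gene coordinates given here). Mcm7, a subunit of the hexameric helicase ring, had 52.5, 50.7 and 72.7 CPM in AA libraries and 23.7, 19.6 and 23.5 CPM in DMSO libraries, a log2 fold change of 1.34 (adjusted p = 0.000416, SE 0.18; chr5:138164583-138172422, minus strand). AA replicate 3 was the highest, and the groups did not overlap. Orc6, a subunit of the origin recognition complex, had 9.70, 10.5 and 12.2 CPM in AA libraries and 4.65, 3.18 and 5.58 CPM in DMSO libraries, a log2 fold change of 1.13 (adjusted p = 0.00595, SE 0.24; chr8:85299632-85308278, plus strand). Mcm4, another subunit of the ring, had 12.3, 13.3 and 12.1 CPM in AA libraries and 9.08, 6.20 and 8.27 CPM in DMSO libraries, a log2 fold change of 0.63 (adjusted p = 0.0435, SE 0.21; chr16:15623897-15637400, minus strand). The AA libraries of Mcm4 were close together and the groups did not overlap, but the call was lost in 11 of 17 alternative settings, among them 5 of the 6 that leave out a library.

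The ring is built from equal numbers of 6 different Mcm subunits, and their fitted log2 fold changes ran from -0.46 for Mcm6 to 1.34 for Mcm7. Mcm2 had 15.6, 16.0 and 15.6 CPM in AA libraries and 15.5, 13.1 and 14.4 CPM in DMSO libraries, a log2 fold change of 0.13 (SE 0.18) that was not called. Mcm3 had a log2 fold change of 0.05 (SE 0.29) and Mcm5 one of -0.22 (SE 0.29), with overlapping groups in both. Mcm6 had 19.1, 20.8 and 15.0 CPM in AA libraries and 30.7, 21.04 and 25.4 CPM in DMSO libraries, a log2 fold change of -0.46 (adjusted p = 0.0969, SE 0.20). All 3 AA libraries of Mcm6 were below all DMSO libraries, by a small margin for AA replicate 2, and the gene was called lower with each of the 3 other scalings. The 6 subunits thus held 2 higher calls, beside 22.3% called higher over all tested genes, and 4 genes without a call. Of the 2 calls, that of Mcm4 was lost in 11 of 17 alternative settings. The loading factors Orc1 and Cdc6 did not reach 1 CPM in 3 libraries: Orc1 had 2 to 13 reads in AA libraries and 1 to 17 reads in DMSO libraries, and Cdc6 had 11 to 20 reads in AA libraries and 3 to 33 reads in DMSO libraries. In the fit without this filter their log2 fold changes were 0.14 (SE 0.21) and 0.31 (SE 0.28), and neither was called.

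The stretches before the start of 3 licensing genes are shown because E2F letters, which the choice of members did not use, were found in a large share of the members' promoter windows. The sequences are RefSeq's (build GRCm38.p6), the 250 bases before the annotated start, 5′ to 3′ on the gene's strand, with capitals where a searched E2F motif matched. The motifs were TTTCCCGC, TTTCGCGC, TTTGCCGC and TTTGGCGC on either strand, and overlapping matches were merged. Mcm5 (chr8:75109259-75109508, plus strand) and Mcm6 (chr1:128359706-128359955, minus strand) were not called, and Cdt1 (chr8:122567765-122568014, plus strand) was called higher.
Mcm5: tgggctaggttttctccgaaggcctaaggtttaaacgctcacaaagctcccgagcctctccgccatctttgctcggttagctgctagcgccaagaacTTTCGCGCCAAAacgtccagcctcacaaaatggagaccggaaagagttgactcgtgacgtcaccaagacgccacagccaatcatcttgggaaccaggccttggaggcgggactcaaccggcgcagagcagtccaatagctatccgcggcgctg
Mcm6: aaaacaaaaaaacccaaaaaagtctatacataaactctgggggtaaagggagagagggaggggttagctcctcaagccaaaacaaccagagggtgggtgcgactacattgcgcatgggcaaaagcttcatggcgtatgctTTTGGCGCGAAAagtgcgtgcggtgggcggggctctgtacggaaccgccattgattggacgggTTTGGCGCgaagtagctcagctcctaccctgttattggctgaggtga
Cdt1: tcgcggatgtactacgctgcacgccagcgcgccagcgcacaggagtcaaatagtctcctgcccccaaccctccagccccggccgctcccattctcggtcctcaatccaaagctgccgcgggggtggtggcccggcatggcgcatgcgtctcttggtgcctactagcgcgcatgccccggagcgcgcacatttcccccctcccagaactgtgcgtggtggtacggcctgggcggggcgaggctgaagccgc

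The Mcm5 stretch held 1 match and the Mcm6 stretch held 2, and the stretch before Cdt1 held none, its match starting 32 bases after the start. A RefSeq window of 250 bases before to 50 bases after the start was at hand for 41 of the 50 members. Any of the 4 motifs was found in 17 of the 41 (41.5%), beside 2.61% of 27025 genes with a window and 4.32% of the 10414 tested genes with a window, and in 15 of the 59 other replication genes with a window (25.4%). Among called members with a window it was found in 2 of 10, Cdt1 and Mcm7, and among the other members in 15 of 31 (48.4%). TTTGAA, the letters of the CHR element of cell cycle genes, was found on either strand in 8 of 41 members (19.5%), beside 20.2% of all genes and 14.3% of tested genes. A match describes these letters in this window and is not evidence of binding.

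None of the 7 tested firing genes was called higher, and 1 was called lower, beside 22.3% and 8.66% of all tested genes. Mcm10, which helps to activate the helicase and recruits polymerase alpha, had 4.66, 4.21 and 6.32 CPM in AA libraries and 8.12, 11.8 and 8.52 CPM in DMSO libraries, a log2 fold change of -0.79 (adjusted p = 0.0308 in limma, SE 0.24; chr2:4989714-5012791, minus strand). The groups did not overlap, and DMSO replicate 2 was the highest. Without DMSO replicate 2 the Mcm10 change was -0.64 and its adjusted p 0.100, without AA replicate 1 the adjusted p was 0.0738, and without AA replicate 2 it was 0.109. Cdc7, the kinase that triggers firing, had 2.48, 2.86 and 2.51 CPM in AA libraries and 0.837, 1.77 and 0.940 CPM in DMSO libraries, a log2 fold change of 0.75 (adjusted p = 0.0547, SE 0.27). Its activator Dbf4 had overlapping groups and a log2 fold change of 0.09 (SE 0.24). Of the 4 GINS subunits, which form 1 complex with Cdc45 and the Mcm ring, Gins3 was at a log2 fold change of 0.72 (adjusted p = 0.0943, SE 0.30), Gins4 one of -0.13 (SE 0.20) and Gins2 one of -0.29 (SE 0.35). Gins3 rested on 23 to 28 reads in AA libraries and 6 to 31 reads in DMSO libraries, and its groups did not overlap in CPM. Gins1 did not pass the filter, with 5 to 16 reads in AA libraries and 11 to 45 reads in DMSO libraries, and was at -0.31 (SE 0.21) without a call in the fit without it. Cdc45 had a log2 fold change of -0.10 (SE 0.30).

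Among the 6 polymerase and primase genes, 2 were called lower and none higher, beside 8.66% lower and 22.3% higher over all tested genes. Their median log2 fold change was -0.17, beside 0.21 over all tested genes. With TMM factors, equalised library medians and quantile normalization it was -0.35, -0.43 and -0.51, beside 0.02, -0.05 and -0.01. Pole had 2.63, 1.91 and 3.66 CPM in AA libraries and 7.07, 5.97 and 6.39 CPM in DMSO libraries, a log2 fold change of -1.03 (adjusted p = 0.0121 in limma, SE 0.26; chr5:110286306-110337474, plus strand). Every AA library was below every DMSO library by a wide margin, on 34 to 51 reads in AA libraries and 102 to 186 reads in DMSO libraries. Prim2, the regulatory subunit of primase, had 3.98, 5.11 and 4.67 CPM in AA libraries and 7.53, 10.6 and 8.96 CPM in DMSO libraries, a log2 fold change of -0.84 (adjusted p = 0.0185, SE 0.23; chr1:33453810-33669795, minus strand). Prim1, the catalytic subunit of the same enzyme, had 10.7, 11.2 and 8.69 CPM in AA libraries and 7.41, 5.11 and 6.58 CPM in DMSO libraries, a log2 fold change of 0.61 (adjusted p = 0.0612, SE 0.22). The groups overlapped for neither subunit, and their fitted values had opposite signs. Pola1, the catalytic subunit of polymerase alpha, was at a log2 fold change of -0.50 (adjusted p = 0.0965, SE 0.21) and its partner Pola2 one of 0.19 (SE 0.28). Pold1, the catalytic subunit of polymerase delta, had overlapping groups and a log2 fold change of 0.15 (SE 0.23). Pola1 was called lower with each of the 3 other scalings. Pole missed the threshold when AA replicate 2 was left out (adjusted p = 0.0548), and Prim2 missed it without AA replicate 1 (0.0532) or DMSO replicate 2 (0.0602).

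Of the 8 genes of the clamp, its loader and lagging strand synthesis, 3 were called higher and none lower. The shares over all tested genes were 22.3% and 8.66%, and the median log2 fold change of the 8 was 0.45, beside 0.21. With TMM factors, equalised library medians and quantile normalization it was 0.29, 0.19 and 0.10, beside 0.02, -0.05 and -0.01 over all tested genes. Pcna had 65.9, 75.4 and 76.5 CPM in AA libraries and 23.1, 23.3 and 28.3 CPM in DMSO libraries, a log2 fold change of 1.51 (adjusted p = 7.64e-05 in limma, SE 0.15; chr2:132249162-132253314, minus strand). The lowest AA library was well above the highest DMSO library, and the value over all alternatives ran from 1.25 to 1.60. Fen1, the flap endonuclease that trims lagging strand fragments, had 12.9, 11.9 and 14.1 CPM in AA libraries and 7.62, 6.29 and 5.89 CPM in DMSO libraries, a log2 fold change of 0.88 (adjusted p = 0.00926, SE 0.21; chr19:10199132-10204169, minus strand). The groups of Fen1 stood clearly apart. Rfc5, a subunit of the complex that opens the clamp, had 17.1, 24.3 and 24.2 CPM in AA libraries and 14.7, 14.3 and 13.9 CPM in DMSO libraries, a log2 fold change of 0.56 (adjusted p = 0.0450, SE 0.19; chr5:117378103-117389047, minus strand). AA replicate 1 was the lowest of its group and still above all DMSO libraries, but the call was lost in 11 of 17 alternatives, among them 5 of the 6 that leave out a library. The loader subunits Rfc3 and Rfc4, the alternative loader subunit Dscc1, the single-strand binding subunit Rpa2 and the ligase Lig1 had log2 fold changes of 0.48, 0.27, 0.02, 0.42 and -0.21, and the groups overlapped for all 5. Pcna-ps2, a pseudogene copy of Pcna named after its values were seen, had 0, 0.112 and 0 CPM in AA libraries and 1.34, 2.89 and 0 CPM in DMSO libraries, so that the summed level of gene and copy was still higher in AA libraries.

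**Figure D2:**
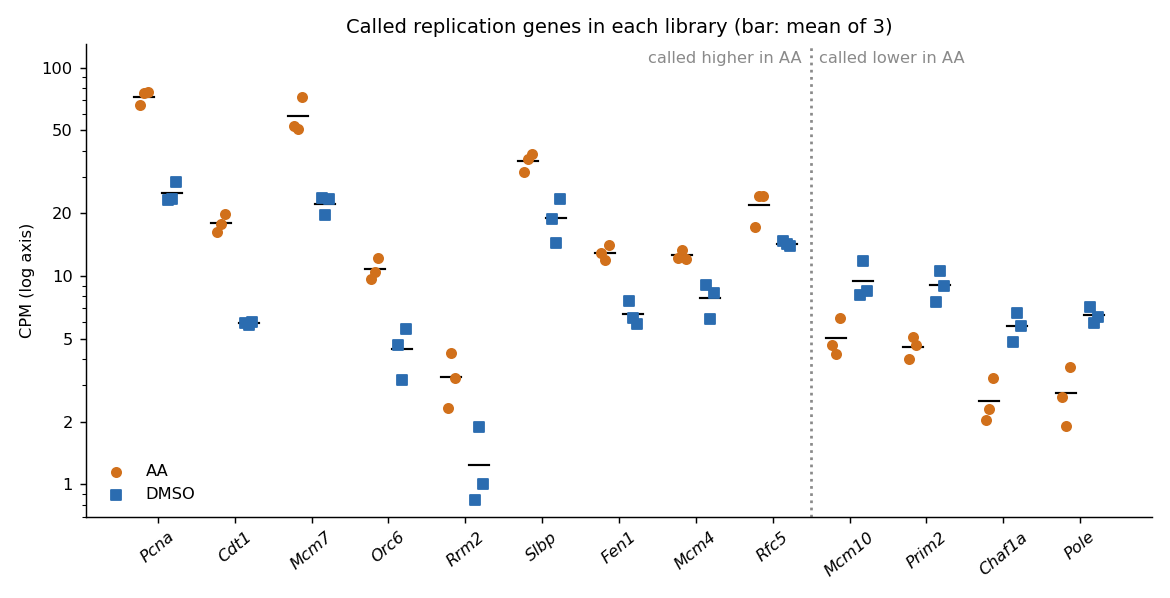
Level in CPM (log y axis) of the 13 called replication genes in each library, with AA libraries as orange circles, DMSO libraries as blue squares and a bar at the mean of 3. Groups do not overlap for any of the 13 genes. AA libraries lie above DMSO libraries for the 9 genes left of the dotted line and below for the 4 genes right of it. The 13 genes were chosen by calls on these same values, so their separation adds no support to the calls. Every AA library lay above every DMSO library for 33.4% of all tested genes and below for 13.0%.

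Of the 5 genes of nucleotide supply, 1 was called higher, beside 22.3% of all tested genes. Rrm2, the S phase subunit of ribonucleotide reductase, had 2.33, 4.27 and 3.23 CPM in AA libraries and 0.837, 1.89 and 1.00 CPM in DMSO libraries, a log2 fold change of 0.93 (adjusted p = 0.0334 in limma, SE 0.29; chr12:24708241-24714146, plus strand). The groups did not overlap, but the values came from 31 to 76 reads in AA libraries and 16 to 59 reads in DMSO libraries, and the call was lost in 9 of 16 alternatives in which the gene was tested, 4 of them leaving out a library. Its large partner Rrm1 had 45.5, 55.6 and 63.3 CPM in AA libraries and 42.6, 52.4 and 70.6 CPM in DMSO libraries, a log2 fold change of 0.01 (SE 0.20). Tyms, thymidylate synthase, had 25.9, 33.7 and 36.8 CPM in AA libraries and 45.4, 60.6 and 38.5 CPM in DMSO libraries, a log2 fold change of -0.56 (adjusted p = 0.0510, SE 0.20). AA libraries of Tyms were all below DMSO libraries, and the gene was called lower in 5 alternatives, among them the 3 other scalings. Dut, which removes dUTP, and Tk1, the thymidine kinase of S phase, were at log2 fold changes of 0.35 (SE 0.21) and 0.12 (SE 0.25), with overlapping groups.

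No gene of the cyclin E and E2F group was called in limma, and 1, Ccne2, had an unadjusted p under 0.05. The shares over all tested genes were 22.3% higher and 8.66% lower. Ccne2 had 3.91, 6.29 and 9.77 CPM in AA libraries and 3.26, 0.931 and 4.14 CPM in DMSO libraries, a log2 fold change of 1.06 (adjusted p = 0.0620, SE 0.40). The groups overlapped, AA replicate 1 being below DMSO replicate 3, and the gene was called higher in 4 alternatives, among them the one without AA replicate 1 and the one without DMSO replicate 3. Ccne1 did not pass the filter, with 6 to 10 reads in AA libraries and 8 to 15 reads in DMSO libraries, and was at -0.01 (SE 0.14) without a call in the fit without it. E2f1, an activator of S phase genes, had 5.94, 4.66 and 4.38 CPM in AA libraries and 2.80, 5.43 and 8.08 CPM in DMSO libraries, so that all AA values lay within the DMSO range. E2f2, the other activator on the list, had a log2 fold change of -0.53 (SE 0.35), and the repressors E2f7 and E2f8 had -0.26 (SE 0.28) and 0.00 (SE 0.31). The groups overlapped for all of them.

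Of the 7 genes of chromatin, fork protection and turnover, Slbp was called higher and Chaf1a lower, beside 22.3% and 8.66% of all tested genes. Slbp, which binds the stem-loop of replication-dependent histone mRNAs, had 31.6, 36.7 and 38.6 CPM in AA libraries and 18.8, 14.4 and 23.4 CPM in DMSO libraries, a log2 fold change of 0.90 (adjusted p = 0.00636 in limma, SE 0.20; chr5:33634952-33652574, minus strand). Chaf1a, the large subunit of the histone chaperone CAF-1, had 2.03, 2.30 and 3.23 CPM in AA libraries and 4.81, 6.68 and 5.76 CPM in DMSO libraries, a log2 fold change of -0.95 (adjusted p = 0.0167, SE 0.25; chr17:56040439-56072289, plus strand). The groups of neither gene overlapped, and the Chaf1a call was lost without AA replicate 1, without AA replicate 2 and without DMSO replicate 2. Its partner subunit Chaf1b had 2.78, 2.36 and 3.88 CPM in AA libraries and 2.05, 1.19 and 2.01 CPM in DMSO libraries, a log2 fold change of 0.54 (SE 0.27) that was not called although the groups did not overlap. Exons of several members overlap those of genes on the opposite strand. Chaf1a shares 4648 exon bases with Ubxn6, Gins2 2758 with Gse1 and Fen1 1909 with the antisense gene Gm10143. Shorter overlaps include those of Rfc5 with Wsb2 (499 bases), Slbp with Gm10459 (474), Mcm7 with Ap4m1 (321) and Orc6 with Vps35 (171). Gse1, Wsb2 and Vps35 had far more reads than Gins2, Rfc5 and Orc6 in every library. The sources used here do not give the strand setting of the counting, so reads of such pairs may be mixed. This limit also applies to the values of these members given above. Ubxn6, named for its overlap with Chaf1a, had 47.4, 48.7 and 47.1 CPM in AA libraries and 41.6, 48.6 and 51.0 CPM in DMSO libraries. Clspn and Tipin, which act in the checkpoint at stalled forks, were at log2 fold changes of -0.19 (SE 0.27) and 0.30 (SE 0.23). Uhrf1, which keeps DNA methylation at the fork, had -0.15 (SE 0.26), and Dtl, which with Pcna marks Cdt1 for destruction, had -0.29 (SE 0.34).

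Ratios of 2 partner genes within 1 library do not depend on how libraries are scaled. The 7 pairs given here were chosen after values were seen, so their ratios are a description without a test, and how many of them overlap between groups has no background to be read against. The Prim1 to Prim2 ratio was 2.68, 2.187 and 1.86 in AA libraries and 0.983, 0.483 and 0.734 in DMSO libraries. The Chaf1b to Chaf1a ratio was 1.37, 1.02 and 1.20 in AA libraries and 0.426, 0.178 and 0.348 in DMSO libraries. The Pola2 to Pola1 ratio was 0.789, 0.798 and 0.938 in AA libraries and 0.382, 0.726 and 0.414 in DMSO libraries. The higher ratio was in AA libraries in all 3 pairs, without overlap. The ratio of Cdt1 to Gmnn, which encodes the inhibitor geminin, was 3.06, 4.28 and 5.04 in AA libraries and 1.04, 0.842 and 1.05 in DMSO libraries. The Rrm2 to Rrm1 ratio was 0.0512, 0.0767 and 0.0511 in AA libraries and 0.0196, 0.0362 and 0.0142 in DMSO libraries. The Cdc7 to Dbf4 ratio was 0.600, 0.510 and 0.438 in AA libraries and 0.164, 0.433 and 0.183 in DMSO libraries. These 3 ratios also did not overlap between groups, with only a narrow gap for Cdc7 to Dbf4. The ratio of the fork protection partners Tipin and Timeless overlapped, at 0.941, 0.941 and 0.571 in AA libraries and 1.16, 0.831 and 0.944 in DMSO libraries.

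**Figure D3:**
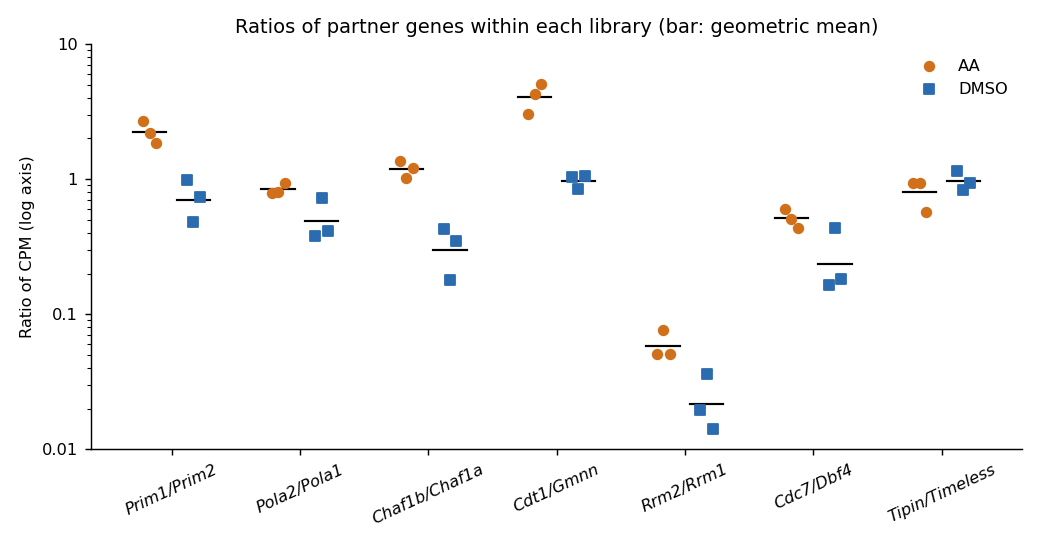
Ratio of the CPM values of 2 partner genes within each library (log y axis), with AA libraries as orange circles, DMSO libraries as blue squares and a bar at the geometric mean of 3. The 6 ratios from Prim1/Prim2 to Cdc7/Dbf4 are higher in every AA library than in any DMSO library, and Tipin/Timeless overlaps.

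Fold change and gene length went together among the members. Spearman's rho of log2 fold change with genomic length was -0.71 over the 46 tested members, beside -0.49 over 70 other replication genes and -0.28 over the 13895 tested genes with a length. The points share the same 6 libraries and are described without a test. Each AA library alone against the DMSO mean gave -0.75, -0.67 and -0.61 for AA replicates 1, 2 and 3, and AA against DMSO replicate 3 alone gave -0.67. With exonic in place of genomic length the correlation was -0.58, and with mean level in place of length it was 0.14. The 9 higher members were 4.15 to 17.6 kb long (median 7.84 kb), the 4 lower members 23.1 to 216 kb (median 41.5 kb), and the 33 tested members without a call had a median of 17.3 kb. Of the 7 tested members under 10 kb, 6 were called higher and none lower, beside 29.9% higher and 4.17% lower among all 3694 tested genes of that length. Of the 20 members of 10 to 20 kb, 3 were called higher and none lower, beside 28.3% and 3.96% of 2650 genes. Of the 15 members of 20 to 40 kb, none was called higher and 2 lower, beside 23.1% and 6.27% of 2889 genes. Of the 4 members over 40 kb, none was called higher and 2 lower, beside 12.5% and 16.4% of 4662 genes. These bins hold few members, and no difference from genes of like length was tested. Over all tested genes the median length was 23.2 kb, with 15.0 kb for genes called higher and 73.4 kb for genes called lower.

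**Figure D4:**
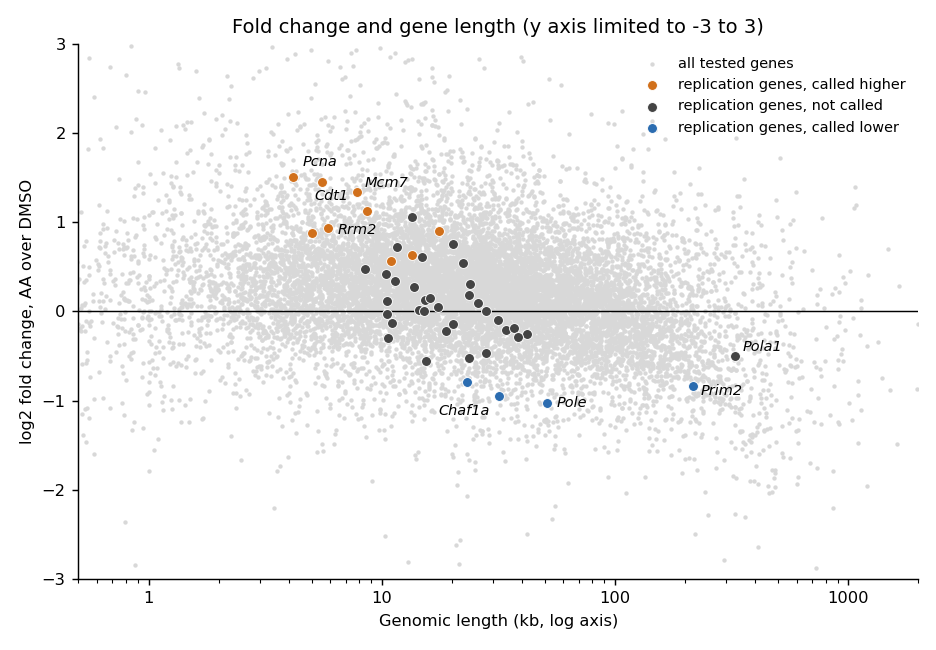
Log2 fold change of AA over DMSO (y axis, limited to 3 on either side of 0) against genomic length in kb (log x axis) for all tested genes in light grey and for the 46 tested members in orange (called higher), dark grey (not called) and blue (called lower). The members run from short and higher, such as Pcna at 4.15 kb, to long and lower, such as Prim2 at 216 kb, with a Spearman correlation of -0.71, beside -0.28 over all tested genes.

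The replication genes beyond the 50 were called higher as often as the background and none was called lower, beside 8.66% of all tested genes. Of 72 such genes, 70 were tested and 16 were called higher (22.9%, beside 22.3% of all tested genes). In limma 3 were lower at an unadjusted p under 0.05. With the other scalings 9 to 11 were called higher and 4 to 8 lower, beside 11.2% to 13.5% and 14.4% to 16.9% of all tested genes. Dck, which phosphorylates salvaged deoxynucleosides, had 10.1, 11.9 and 17.3 CPM in AA libraries and 4.81, 3.21 and 4.26 CPM in DMSO libraries, a log2 fold change of 1.45 (SE 0.26). Pold4, the small subunit of polymerase delta, had 15.2, 15.3 and 14.1 CPM in AA libraries and 6.78, 6.62 and 5.76 CPM in DMSO libraries, a log2 fold change of 1.11 (SE 0.20) while the catalytic Pold1 at 0.15 was not called; the difference was not tested. Recql4, a helicase of origin firing, had 4.43, 2.13 and 2.08 CPM in AA libraries and 0.377, 0.546 and 0.251 CPM in DMSO libraries, a log2 fold change of 1.43 (SE 0.30). All 3 genes had no overlap between groups and kept their calls in every alternative in which they were tested. Further genes called higher were Donson (1.03) in firing, Kat7 (0.57) in licensing, Rfc2 (0.90), Chtf8 (0.81) and Rnaseh2a (0.70) in the clamp and lagging strand group, Tk2 (0.56) in nucleotide supply, and Fbxw7 (0.98), Cdc25a (0.85) and E2f6 (0.62) in the cyclin E and E2F group. In the chromatin group Supt16 (0.66), Rbbp7 (0.62) and Nasp (0.61) were called higher, and the 16th called gene, outside the naming rule, was Ssrp1 (0.47), all values being log2 fold changes. Of these calls, Tk2 and Nasp were lost in 10 of 17 alternatives, Rnaseh2a in 9, E2f6 in 7, Donson in 5, Rbbp7 in 4, Kat7 in 3, and Rfc2 and Supt16 in 1, while Chtf8, Fbxw7 and Cdc25a were kept in all 17.

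Markers of dividing cells were at a few CPM or less in both groups. Cdk1 and Aurkb did not pass the filter. Cdk1 had 3 to 8 reads in AA libraries and 2 to 21 reads in DMSO libraries. Aurkb had 11 to 17 reads in AA libraries and 6 to 21 reads in DMSO libraries. Mki67 had 4.51, 1.63 and 2.15 CPM in AA libraries and 1.63, 2.63 and 1.82 CPM in DMSO libraries. Top2a had 1.95, 3.20 and 3.23 CPM in AA libraries and 4.02, 8.06 and 2.44 CPM in DMSO libraries. Ccna2 had 1.88, 2.41 and 3.45 CPM in AA libraries and 0.711, 1.83 and 0.564 CPM in DMSO libraries, without overlap and without a call (adjusted p = 0.0622). None of the 6 tested proliferation markers was called, and the summed level of the 8 markers was 14.4 to 19.1 CPM in AA libraries and 10.7 to 21.2 CPM in DMSO libraries. Beside the marker counts given here, 22.3% of all tested genes were called higher and 8.66% lower, with a median log2 fold change of 0.21. No marker list was tested against these values, and summed levels are of CPM as deposited. Summed markers of the S2 and S3 proximal tubule were 7958 to 9725 CPM in AA libraries and 14640 to 20048 CPM in DMSO libraries, with 5 of 10 called lower. Endothelial markers summed to 346 to 394 CPM in AA libraries and 222 to 335 CPM in DMSO libraries (3 of 8 called higher). Stromal markers summed to 118 to 136 CPM in AA libraries and 59.8 to 93.6 CPM in DMSO libraries (2 of 5 higher), and podocyte markers summed to 77.8 to 123 CPM in AA libraries and 51.3 to 75.7 CPM in DMSO libraries (1 of 5 higher). Distal nephron markers summed to 360 to 1407 CPM in AA libraries and 238 to 530 CPM in DMSO libraries (2 of 8 higher). Macrophage and leukocyte markers summed to 231 to 306 CPM in AA libraries and 217 to 322 CPM in DMSO libraries (4 of 9 higher), with Cd3e at 0 in 1 DMSO library and Lum of the stromal list at 0 in 1 DMSO library. Within the macrophage list the members differed: Cd68 had 20.1, 26.6 and 38.4 CPM in AA libraries and 1.17, 1.25 and 0.376 CPM in DMSO libraries, and Lyz2, Cd74 and C1qb were the other higher calls. Csf1r, the most abundant of the list, had 172, 111 and 151 CPM in AA libraries and 159, 253 and 202 CPM in DMSO libraries, and the median log2 fold change of the 9 tested was 0.59. The part of these other cells in the members' changes was not tested, and in bulk RNA fewer cells of a type and less RNA per cell cannot be told apart.

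The calls differed in how well they held when the analysis was changed. Of the 13 called members, Pcna, Cdt1, Mcm7, Orc6 and Slbp kept their calls in the 16 alternatives other than a term for a split among the DMSO libraries, and these 5 with Fen1 kept them whichever library was left out. DMSO replicates 1 and 2 stood apart from the other 4 libraries by more than 2 on the log2 scale for 44 genes, none of them a member. With a term for this split, AA is in effect set against DMSO replicate 3, and that single library is assumed to vary like the others. Most member calls were lost with it, and only effect sizes are read from that fit in this paragraph. With that term the log2 fold changes of the lower members Pole, Chaf1a, Prim2 and Mcm10 were -1.01, -0.96, -0.84 and -0.67, beside -1.03, -0.95, -0.84 and -0.79 without it. Those of the higher members Pcna, Mcm7, Orc6 and Slbp were 1.33, 1.26, 0.84 and 0.58, beside 1.51, 1.34, 1.13 and 0.90. Those of Fen1 and Rrm2 were 1.02 and 1.07, beside 0.88 and 0.93. Cdt1, Mcm4 and Rfc5 were at 1.43, 0.55 and 0.60, beside 1.45, 0.63 and 0.56. No called member changed sign in any alternative.

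**Figure D5:**
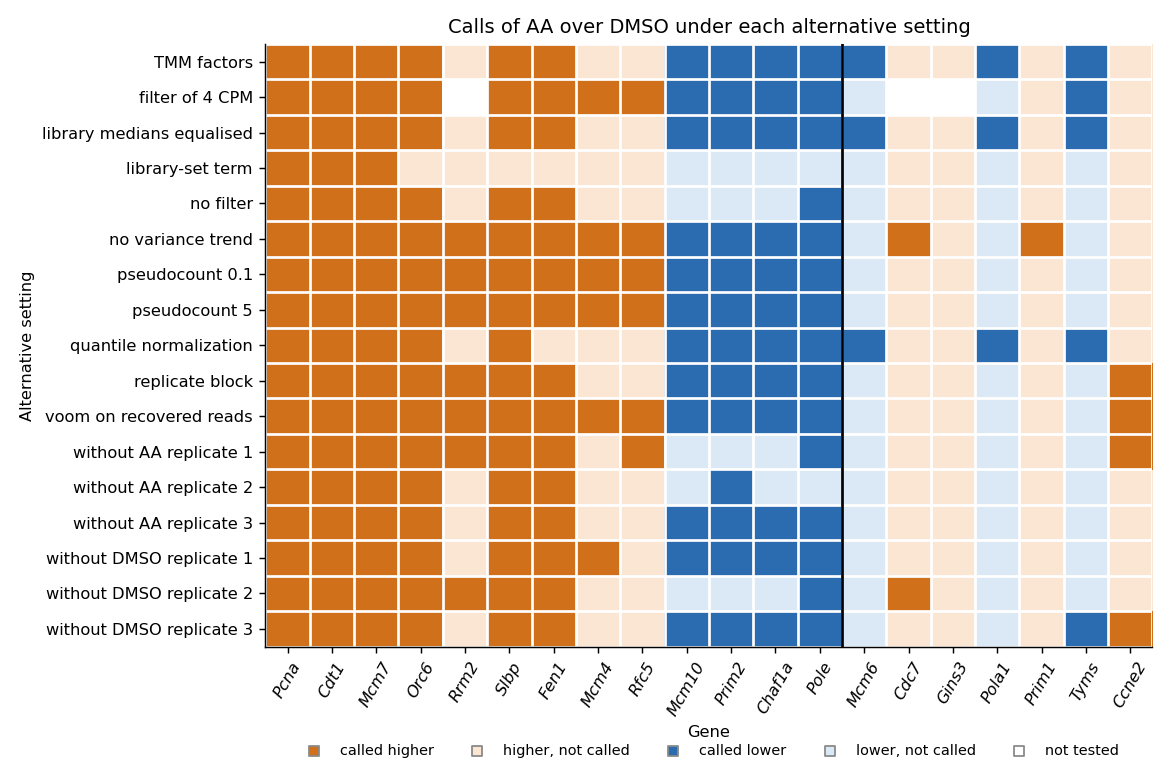
Calls of the 13 called members (left of the black line) and of the 7 members with an adjusted p between 0.05 and 0.10 (right of it) under each of 17 alternative settings, in rows; dark orange is called higher, light orange higher without a call, dark blue called lower, light blue lower without a call, and white not tested. The columns of Pcna, Cdt1 and Mcm7 are dark orange throughout, and Mcm6, Pola1 and Tyms are called lower with TMM factors, equalised library medians and quantile normalization.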

How the data were processed

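The authors deposited 1 table of 32544 genes by 6 libraries on a log10 scale. Undoing the logarithm gave columns that each summed to 1e+06 after subtracting the 1 that had been added, and 100% of values were whole multiples of 1 read within 0.1 read, so the deposited values are log10(CPM + 1). Per the submitters' processing notes, bcl2fastq 2.19 and kallisto were used with the mm10 build; the kallisto version, the annotation, the step from transcripts to genes and the strand setting are missing from the sources used here. Per the labels' protocols, libraries were made with a stranded mRNA kit.

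Values were turned back to CPM and logged as log2(CPM + 1). The 14311 genes that reached 1 CPM in 3 or more libraries were tested in R 4.3.3 with limma 3.58.1 (moderated test, variance trend), two-sided, with Benjamini-Hochberg adjustment over all of them and a call at an adjusted p under 0.05. A log2 fold change is AA over DMSO of log2(CPM + 1) values, so the change of low genes is understated, and SE is its moderated standard error. The precision is set by 3 libraries per group and by depth, and reads without molecular identifiers are not independent molecules.

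Symbols were matched to GENCODE M21 (GRCm38) for position and length, and promoter sequences came from RefSeq. Alternatives were TMM factors (own implementation), equalised library medians, quantile normalization, no filter or a filter of 4 CPM, pseudocounts of 0.1 and 5, no variance trend, voom on recovered reads, a replicate block, a term for the library split and leaving out each library. The members, their roles, the 72 other replication genes and the marker lists were chosen with earlier results of these data known, so no test over a list is given. All 50 members are named, and of the other replication genes up to 3 called per role by smallest adjusted p. Of the marker lists, Mki67, Top2a, Ccna2 and some highly expressed members are named. Other markers were named after their values were seen: Lyz2 and C1qb for their calls, Cd3e and Lum for a library without reads. Cdk1 and Aurkb were named in the same way, for not passing the filter.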

Additional observations from a re-analysis of the deposited data

How the results depend on the processing

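Over all tested genes 4426 were called, against 1481 with the library-set term (DMSO replicates 1 and 2 against the rest) and 2645 to 3980 with a library left out, the fewest without AA replicate 2. Members called higher numbered 9, against 3 with the library-set term, 5 with quantile normalization and 6 with TMM factors, with equalised library medians and without the filter; leaving out a library gave 6 to 9. Members called lower numbered 4, against 7 with TMM factors, 7 with equalised medians, 7 with quantile normalization, 1 without the filter, 0 with the library-set term (limma, as in every setting) and 1 to 5 with a library left out; the lower calls added by these 3 scalings were Mcm6, Pola1 and Tyms. The members' median log2 fold change of 0.10 was -0.0820 with TMM factors, -0.16 with equalised medians, -0.18 with quantile normalization and 0.0538 to 0.155 with a library left out. Over all genes, higher and lower calls numbered 1932 and 2064 with TMM factors, 1606 and 2422 with equalised medians, and 1822 and 2077 with quantile normalization, against 3187 and 1239. As shares of all tested genes these were 13.5% and 14.4%, 11.2% and 16.9%, and 12.7% and 14.5%, against 22.3% and 8.66%. Without the filter the shares higher and lower were 11.3% and 4.13%. With a library left out they were 12.9% to 19.8% and 5.61% to 7.97%. The other settings left 8 to 11 members higher and 4 or 5 lower. Same-numbered libraries did not deviate together (correlations of -0.11, -0.16 and -0.02, beside -0.07 to 0.19 for other-numbered libraries). No pairing by number was thus seen, though with 3 libraries per group these correlations cannot exclude one. With the replicate block 3813 genes, 8 higher and 4 lower members were called. Voom on the recovered whole reads called 3191 genes higher and 1175 lower, with 10 and 4 members. The length correlation of the members lay between -0.74 and -0.67 in all settings. The 4 members outside the filter were tested without it and not called, on few reads per library. The cause of these differences was not tested.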

Other observations

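Several replication genes share a start region with a gene on the opposite strand, and those neighbours are described here after their values were seen. Mcm4 starts 466 bases from Prkdc, which encodes the catalytic subunit of DNA-dependent protein kinase and spans 204 kb. Prkdc had 36.8, 34.4 and 35.2 CPM in AA libraries and 72.6, 72.1 and 71.7 CPM in DMSO libraries, a log2 fold change of -1.01 (adjusted p = 0.000385 in limma, SE 0.13), whereas Mcm4 had 0.63 (adjusted p = 0.0435). Prkdc values were nearly equal within each group, and the neighbours carried calls of opposite sign, though the Mcm4 call was lost in 11 of 17 alternatives. Pole starts 120 bases from Pxmp2, a peroxisomal membrane protein gene, which had 33.1, 26.8 and 23.6 CPM in AA libraries and 45.3, 54.0 and 45.8 CPM in DMSO libraries, a log2 fold change of -0.79 (adjusted p = 0.00578, SE 0.17), so that both neighbours were called lower. Tk1, without a call at 0.12, overlaps the start of Afmid, which was called lower at -0.68 (SE 0.17). Vps35 beside Orc6, Ap4m1 beside Mcm7 and Tmem258 beside Fen1 had log2 fold changes of -0.09, 0.32 and 0.30 without a call, next to members that were called higher. Next to members without a call, Slc25a40 beside Dbf4 and Ints7 beside Dtl were at 0.01 and 0.004 and were not called. Abhd12 beside Gins1 and Prpf38a beside Orc1 were at -0.02 and 0.41, also without a call.

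Per kilobase of exon, the order of levels among members differed between groups. Exon length here is the union of all annotated exons of a gene, such as 1349 bases for Gins4 and 11012 bases for Rrm1. The lengths of the transcripts present were not known, so the order of genes within a group depends on this choice. In AA libraries Pcna averaged 30.3 ± 2.43 CPM per kb and Mcm7 13.2 ± 2.76 CPM per kb, followed by Gins4 at 7.16 ± 0.399 (SD, n = 3 each). In DMSO libraries Pcna averaged 10.4 ± 1.23 CPM per kb, and Gins4 at 7.93 ± 0.595 and Tyms at 7.91 ± 1.86 came next without differing beyond their spread, followed by Mcm6 at 5.51 ± 1.03, Mcm7 at 5.03 ± 0.527 and Rrm1 at 5.01 ± 1.29, which also did not differ beyond theirs (SD, n = 3 each).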
